A study of Mus musculus with 8 samples.

Results

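The bone morphogenetic protein (BMP) ligands and receptors were examined in liver macrophages of C57BL/6 mice, a common inbred strain, fed either a normal diet (4 libraries, ND) or a western diet (4 libraries, WD). They were selected on their presence in a filtered table, as the rows of the authors' deposited table of genes differing between the diets whose symbol starts with Bmp or Acvr. There were 7 such rows among the 2386 genes of that table: the ligand genes Bmp2, Bmp5, Bmp6 and Bmp10, the receptor genes Acvr1 and Bmpr2, and Bmper, which encodes a secreted BMP-binding protein and is neither a ligand nor a receptor. The series design gives 4 mice for each diet, as many as there are libraries. The sources used here state neither what the diets contained and how long they lasted, nor the age of the mice, nor how macrophages were isolated. The table calls its groups WDV and NDV without explaining the V, and these were read as the WD and ND libraries. The table holds 1 value per gene for the whole comparison and none for a single library, so errors are given as the standard error (SE) that the authors deposited, or as the 95% interval of 1.96 SE on each side, and depth per library is unknown.

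BMPs are secreted dimers of the transforming growth factor beta (TGF-beta) superfamily. A BMP brings together type I and type II receptor kinases, which phosphorylate SMAD1, SMAD5 and SMAD9; these enter the nucleus with SMAD4 and switch on genes such as the Id genes and the inhibitor gene Smad6. In the liver, sinusoidal endothelial cells are known as the main source of BMP2 and BMP6, which act on hepatocytes through ACVR1 (ALK2), BMPR1A (ALK3) and the co-receptor hemojuvelin to induce hepcidin, the hormone that limits iron uptake. BMP9, encoded by Gdf2, and BMP10 are circulating ligands of ACVRL1 (ALK1) on endothelial cells and Kupffer cells, and stellate cells are a known hepatic source of both.

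All 7 genes were lower under western diet, and by point estimate the ligand genes fell by more than Acvr1 and Bmpr2. The intervals of Bmp5 and Bmp10 overlapped that of Bmpr2. The genes were chosen by their values: membership required an unadjusted p below 0.05 and an absolute log2 fold change above 1, the limits that every row of the authors' deposited table was found to meet, so the values below describe the genes and are not a test of them. Of 22 protein-coding genes whose symbol starts with Bmp or Acvr in the GENCODE M21 annotation, 15 were not in the table, among them Bmp4, Bmp7, Bmpr1a, Bmpr1b, Acvr1b, Acvr2a, Acvr2b and Acvrl1. Absence from the table does not show that a gene was unchanged, since it may have missed 1 limit only or been too low to measure. Of the 17531 genes that the authors tested, as recovered from their p-values, 8.35% were lower and 3.0% higher when a call required an adjusted p below 0.05 and more than 2-fold, as counted from the authors' deposited table. Among the 7, the gene nearest the fold limit was Acvr1 (log2 -1.14), and the largest p-value, that of Bmp10 (7.23e-07), was far inside its limit. No genes just outside the limits were listed.

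**Figure D1:**
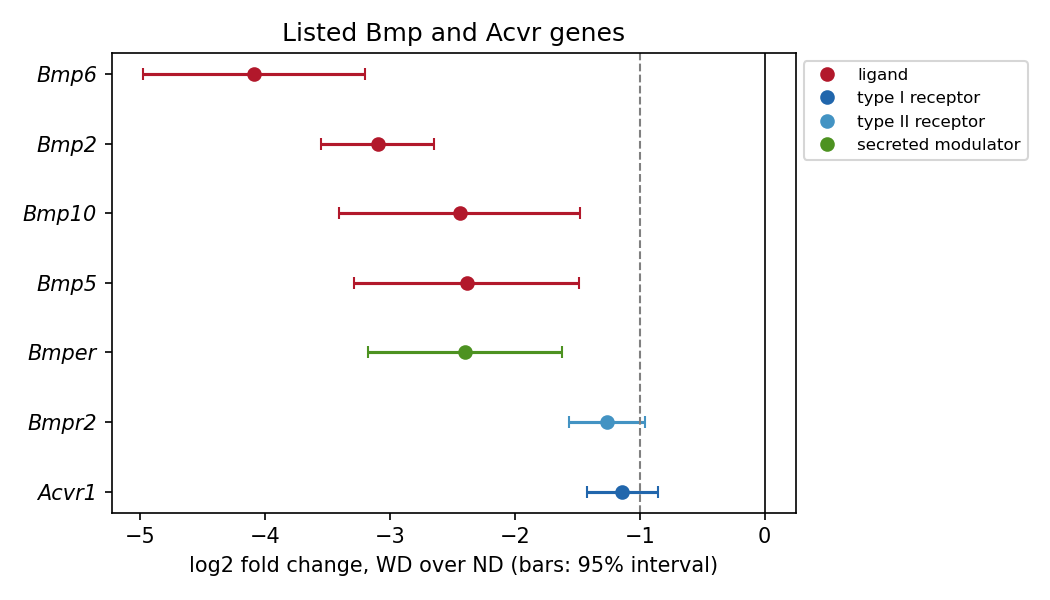
Log2 fold change of WD over ND (horizontal axis) for the 7 listed Bmp and Acvr genes, coloured by role, with bars for the 95% interval; the dashed line marks the limit of the table at -1. Bmp6 lies farthest from 0 at -4.09, and only the intervals of Bmpr2 and Acvr1 cross the dashed line.

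Bmp6 (ENSMUSG00000039004, chromosome 13, 38345107 to 38500302, plus strand, GRCm38, the build also called mm10) encodes the ligand that rises with hepatic iron and drives hepcidin. It had a mean normalized read count of 476.5 and a log2 fold change of -4.09 ± 0.45 (SE) in the authors' deposited table. That is a 17.0-fold lower level in WD, with a 95% interval from 9.19-fold to 31.6-fold. In the order of all 2386 listed fold changes it was the fall ranked 50, larger than 97.0% of the lower genes. Its SE was larger than that of Bmp2 (0.23), so the size of the fall was less precisely known. The 3′ end of Bmp6 overlaps Txndc5 on the opposite strand, and 4930579J19Rik lies antisense within the gene; neither was in the table, and whether the reads kept strand information is not given in the sources used here.

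Bmp2 (ENSMUSG00000027358, chromosome 2, 133552159 to 133562885, plus strand), the other endothelial ligand of the hepcidin axis, was the most abundant of the 7 genes. Its mean normalized read count was 2242 and its log2 fold change was -3.10 ± 0.23 in the authors' deposited table, an 8.57-fold lower level (95% interval 6.27-fold to 11.7-fold). It had the smallest p-value of the 7 genes, at rank 83 of the table. The intervals of Bmp2 and Bmp6 overlapped, and without values per library the difference between the falls could not be tested.

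The remaining ligands were scarce. Bmp10 (ENSMUSG00000030046, chromosome 6, 87428994 to 87437677), the ALK1 ligand best known from the heart, had a mean normalized read count of 21.1 and a log2 fold change of -2.44 ± 0.49 in the authors' deposited table. Bmp5 (ENSMUSG00000032179, chromosome 9, 75775364 to 75900310), a close relative of Bmp6, had a mean of 20.7 and -2.39 ± 0.46 in the authors' deposited table. These are falls of 5.43-fold and 5.23-fold, with 95% intervals from 2.78-fold to 10.6-fold and from 2.80-fold to 9.77-fold. All 6 pairs among the 4 ligands had overlapping intervals.

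Both receptor genes fell by little more than 2-fold. Bmpr2 (ENSMUSG00000067336, chromosome 1, 59763400 to 59879014) encodes the type II receptor of BMPs, whose loss of function is a known cause of pulmonary arterial hypertension. It had a mean normalized read count of 1448 and a log2 fold change of -1.26 ± 0.16 in the authors' deposited table, or 2.39-fold lower (95% interval 1.94-fold to 2.96-fold). Acvr1 (ENSMUSG00000026836, chromosome 2, 58388644 to 58567157, minus strand) encodes the type I receptor ALK2, through which BMP6 signals in hepatocytes. Its mean was 204.3 and its log2 fold change was -1.14 ± 0.15 in the authors' deposited table, or 2.20-fold lower (1.80-fold to 2.69-fold). The fold change intervals of Bmp2 and Bmp6 lay below those of both receptor genes. Those of Bmp5 and Bmp10 lay below that of Acvr1 and overlapped that of Bmpr2. Of all lower listed genes, 15.4% had a smaller fall than Bmpr2 and 9.0% than Acvr1. For Bmp2 and Bmp6 these shares were 82.6% and 97.0%, and for Bmp5 and Bmp10 59.8% and 61.2%.

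Bmper (ENSMUSG00000031963, chromosome 9, 23223076 to 23485200) encodes a BMP-binding endothelial regulator that can restrain or promote BMP signals. Its mean normalized read count was 41.0 and its log2 fold change was -2.40 ± 0.39 in the authors' deposited table. The fall of 5.27-fold (95% interval 3.09-fold to 9.02-fold) was close in size to those of Bmp5 and Bmp10 and lay apart from those of Bmp6, Bmpr2 and Acvr1.

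A level in each diet was back-calculated from the deposited mean count and fold change, taking the mean to be over 4 ND and 4 WD libraries with equal weight; these levels have no error of their own and would not hold if the deposited mean covered further libraries. Bmp2 stood at 4016 normalized reads in ND and 469 in WD. For Bmp6 the levels were 900.2 and 52.8. Bmpr2 went from 2043 to 854, Acvr1 from 280.9 to 127.6 and Bmper from 68.9 to 13.1. The scarce ligands Bmp5 and Bmp10 started alike in ND (34.8 and 35.6) and were under 10 reads in WD (6.66 and 6.57).

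Levels of different genes can be compared only per length, since longer transcripts give more fragments. Per kilobase of merged exons in GENCODE M21, Bmp2 had 630.8 mean normalized reads over both diets and ranked 41 among the 2386 listed genes. Bmp6 followed with 122.2, ahead of Bmpr2 with 80.5, whose merged exons span 18.0 kb. Acvr1 had 42.3, Bmper 8.48, Bmp5 5.15 and Bmp10 4.70 mean normalized reads per kilobase. By the back-calculated levels per kilobase, Bmp2 was highest in ND (1130) and in WD (132). Bmp6 stood above both receptor genes in ND, at 231 beside 114 for Bmpr2 and 58.2 for Acvr1. In WD it stood below both, at 13.6 beside 47.5 and 26.4. Merged exons take in every annotated transcript of a gene, and the transcripts expressed are not known. By counts alone Bmp6 (900.2) was already below Bmpr2 (2043) in ND, so the change of order with Bmpr2 rests on the length used. The spread of these levels over libraries is unknown, so whether neighbours in this order differ, such as Bmp5 and Bmp10, cannot be said.

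**Figure D2:**
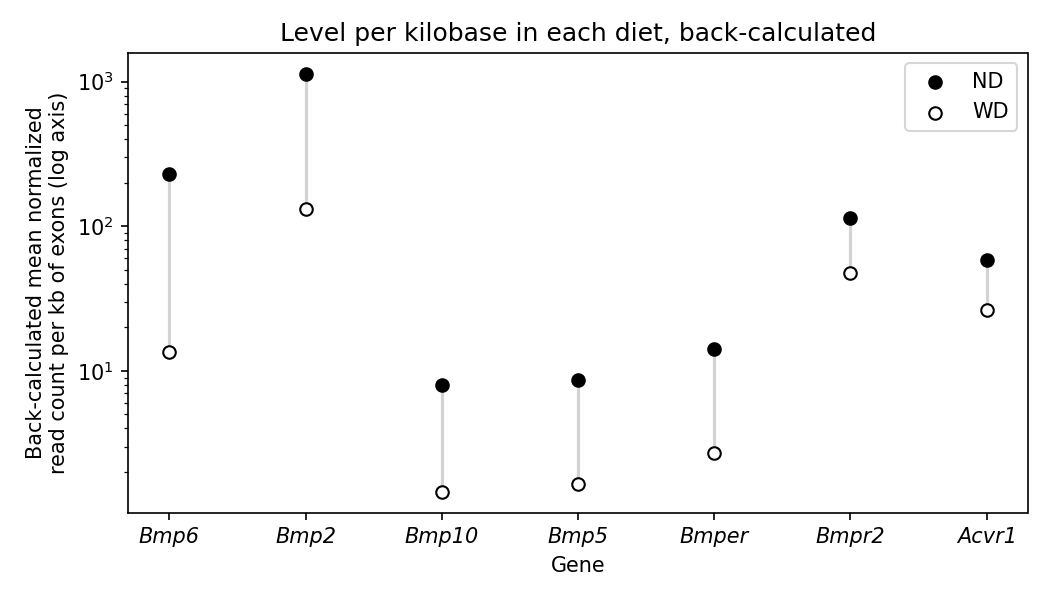
Back-calculated mean normalized read count per kilobase of merged exons (vertical log axis) of the 7 genes in ND (filled circles) and WD (open circles), joined by a line per gene, without errors. Bmp2 is highest in both diets, and Bmp6 drops from 231 to 13.6, from above Bmpr2 and Acvr1 to below both.

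The genes nearest to Bmp2 and Bmp6 in log2 fold change, among listed genes whose mean count lay within 2-fold, were found next. For Bmp2 there were 111 such genes, and the 3 nearest were Gpihbp1 (-3.10 ± 0.25), the capillary anchor of lipoprotein lipase, Robo4 (-3.10 ± 0.41), an endothelial guidance receptor, and Ltbp4 (-3.08 ± 0.22), a latent TGF-beta binding protein, in the authors' deposited table. For Bmp6 there were 350 candidates, and the nearest were the endothelial junction gene Cldn5 (-4.12 ± 0.20), Exoc3l2 (-3.93 ± 0.25) and Tpbgl (-3.90 ± 0.26) in the authors' deposited table. Likeness here rests on 1 fold change per gene, not on a pattern over libraries.

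Markers of endothelial and stellate cells moved in the same direction. The marker lists were drawn up with earlier results of these data known, so counts from them are a description and not a test. Of 20 markers of sinusoidal endothelium, all 20 fell in the authors' deposited table, beside 8.35% lower of all tested genes. The log2 fold changes of these 20 markers ran from -4.12 to -1.38, with a median of -3.00. By p-value Cldn5, Egfl7 (-3.50 ± 0.20), a secreted endothelial factor, and the Fc receptor gene Fcgr2b (-1.38 ± 0.091) had the smallest p-values there, by the authors' deposited table. The back-calculated sum of the 20 markers was 115462 normalized reads in ND and 20962 in WD, a 5.51-fold difference. By point estimate Bmp6 fell more than 19 of the 20 markers and Bmp2 more than 11, and the interval of each overlapped those of 13 markers. For each 1000 reads of these markers there were 34.8 of Bmp2 in ND and 22.4 in WD, and 7.80 of Bmp6 in ND and 2.52 in WD. These ratios depend on the markers summed. Abundant markers with small falls weigh on the sum, such as Fcgr2b (13041 in ND, 5027 in WD) and Stab1 (10244 and 3189). How far macrophages express these markers, and whether Bmp2 or Bmp6 fell beyond the endothelial signal, was not tested. By their point estimates all 20 markers fell more than Bmpr2 and more than Acvr1, whose intervals each overlapped those of 5 markers.

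Of 20 stellate cell and fibroblast markers, 12 were listed and all 12 fell in the authors' deposited table, from -2.59 to -1.18 with a median of -1.85. That is 60.0% of the list, beside 8.35% of all tested genes. Bgn, a matrix proteoglycan gene (-2.01 ± 0.22), Lrat, the retinol esterification gene of stellate cells (-2.19 ± 0.42), and Vipr1 (-1.79 ± 0.35) had the smallest p-values of the list in the authors' deposited table. The summed level of the 12 was 3.67-fold lower in WD by back-calculation. Bmp10 and Gdf2 each fell more than 11 of the 12, and their intervals overlapped those of all 12. Each fell more than 6 of the 20 endothelial markers and less than 14. Their intervals overlapped those of 19 endothelial markers for Bmp10 and 20 for Gdf2. The part of endothelial and stellate cells in the fall of the BMP genes was not tested. In RNA of a cell preparation, fewer cells of a type and less RNA per cell cannot be told apart. None of 18 Kupffer cell markers, Adgre1, Clec4f and Timd4 among them, was in the table, so the macrophage label could not be checked against levels. Of the other lists, 9 of 15 T and NK cell markers (60.0%) and 7 of 9 mast cell markers (77.8%) rose in the authors' deposited table. So did 3 of 15 hepatocyte markers (20.0%) and 2 of 9 B cell markers (22.2%), beside 3.0% higher of all tested genes. Kit of the mast cell list fell (11.1%, beside 8.35% lower of all tested genes), and none of 8 cholangiocyte markers was called.

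**Figure D3:**
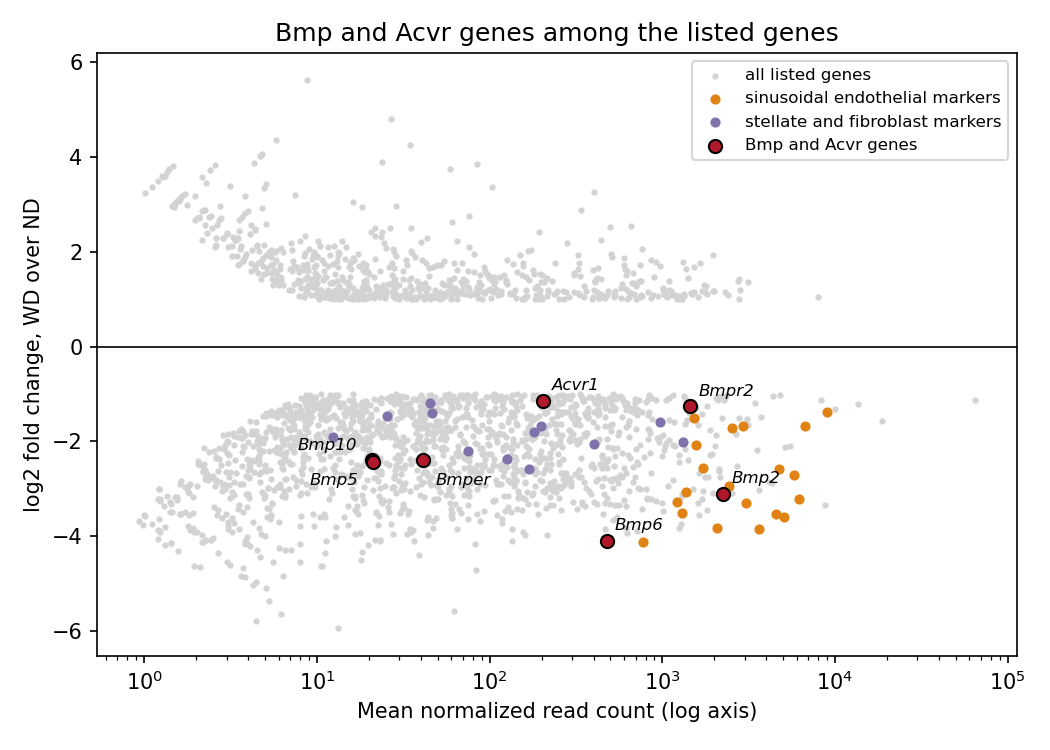
Mean normalized read count (horizontal log axis) against log2 fold change of WD over ND for all 2386 listed genes in grey, with 20 sinusoidal endothelial markers in orange, 12 stellate and fibroblast markers in purple and the 7 Bmp and Acvr genes in red. Bmp2 lies among the endothelial markers, Bmp6 beside the lowest of them at -4.09, and Bmpr2 and Acvr1 near the limit of the table.

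The rest of the pathway was read from 9 lists of 134 genes in all, of which 127 were not among the 7. Of these 127, 15 fell, 1 rose, 108 were absent from the authors' deposited table, and 3 were in it but did not pass. These are shares of 11.8% lower and 0.79% higher, beside 8.35% and 3.0% of all tested genes, and no difference from all genes is read from them. The median log2 fold change of the 19 listed genes outside the 7 was -1.74, beside -1.55 over all listed genes and -2.08 over the lower listed genes.

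Among 25 BMP and growth differentiation factor ligands, 7 were lower and none was higher in the authors' deposited table. The 4 Bmp genes among them were chosen by their values; of the other 21 ligands, 3 were lower (14.3%, beside 8.35% of all tested genes), namely Gdf2, Lefty1 and Gdf10. Gdf2, the BMP9 gene (chromosome 14, 33941039 to 33947198), had a mean normalized read count of 93.3 and a log2 fold change of -2.52 ± 0.65 in the authors' deposited table. Its SE was the largest of the 7 ligands, and its 5.72-fold fall had a 95% interval from 2.36-fold to 13.8-fold. Lefty1, an inhibitor of Nodal, stood at -1.79 ± 0.32 and Gdf10, the BMP3B gene, at -1.74 ± 0.56 (adjusted p 0.00976) in the authors' deposited table.

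Of 8 TGF-beta and activin ligands, 1 fell and 1 rose (12.5% each, beside 8.35% lower and 3.0% higher of all tested genes). With 1 gene each way, nothing about the list is read from these shares. Inhbb, the activin B subunit gene, is also linked to hepcidin and had a log2 fold change of -1.68 ± 0.29 in the authors' deposited table. Tgfb3, a TGF-beta ligand gene, was the only member of the 9 lists to rise, at 1.34 ± 0.24 in the authors' deposited table (2.54-fold, 95% interval 1.84-fold to 3.49-fold). Its mean of 198.2 normalized reads per kilobase was above the 122.2 of Bmp6. The gene Ttll5 overlaps it on the opposite strand and was not listed.

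The co-receptor genes Eng and Tgfbr3 fell further than Acvr1 and Bmpr2, the only listed genes of receptor kinases. Of 9 co-receptor and decoy receptor genes, 2 were lower and none was higher (22.2% lower, beside 8.35% of all tested genes). Eng, the endoglin gene, which presents BMP9 and BMP10 to ALK1 (chromosome 2, 32646595 to 32682669), had a mean normalized read count of 4326 and a log2 fold change of -2.88 ± 0.25 in the authors' deposited table. Tgfbr3, the betaglycan gene, stood at -2.75 ± 0.26 in the authors' deposited table. Both intervals lay below those of Bmpr2 and Acvr1. The third listed co-receptor, Tgfbr3l, did not pass (adjusted p 0.130 at a log2 fold change of -1.10 ± 0.56 by the authors' deposited table). The other 16 of 21 receptors and co-receptors were not listed, among them Tgfbr1, Tgfbr2 and the hemojuvelin gene.

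Beside Bmper, 4 of 29 extracellular modulators were lower and none was higher in the authors' deposited table (13.8% lower, beside 8.35% of all tested genes). Ltbp4 fell with the smallest p-value of all pathway genes. Ltbp1 (-1.27 ± 0.31) and Ltbp3 (-1.22 ± 0.27), which also hold TGF-beta in the matrix, fell less in the authors' deposited table. Crim1, a membrane protein that binds BMPs, stood at -1.74 ± 0.17 in the authors' deposited table. The classical antagonist genes Nog, Chrd, Grem1 and Fst were not listed.

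Inside the cell, Smad6 was the only one of 16 SMADs and regulators to pass, a share of 6.25% that lay near the 8.35% of all tested genes. Smad6, the inhibitory SMAD that BMP signals induce and that shuts them off, had a mean normalized read count of 421.5 and a log2 fold change of -1.70 ± 0.16 in the authors' deposited table. Zfp423, a SMAD partner, did not pass (adjusted p 0.0746 at a log2 fold change of -1.95 ± 0.86 by the authors' deposited table). Of 16 BMP target genes, 3 fell (18.8%, beside 8.35% of all tested genes) and none rose: Smad6, Id4 (-3.32 ± 0.49), a dominant-negative helix-loop-helix gene, and Atoh8 (-2.30 ± 0.46), a transcription factor gene that responds to iron and BMP in liver, in the authors' deposited table. Id1, Id2, Id3 and Smad7 were not listed. The antisense gene A330033J07Rik overlaps the 5′ part of Id4 and was not in the table.

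Of 25 genes of hepatic iron handling, 2 were lower and 0 higher by the authors' deposited table, and this share of 8.0% was near the 8.35% of all tested genes. Heph, the ferroxidase hephaestin, stood at -2.86 ± 0.25, and Hp, haptoglobin, which binds free haemoglobin, at -1.52 ± 0.28 in the authors' deposited table. Steap4, a metalloreductase gene, did not pass (adjusted p 0.0895 at a log2 fold change of -1.11 ± 0.51 by the authors' deposited table). Hamp, the hepcidin gene, Slc40a1, the iron exporter ferroportin, and Tfrc were not listed.

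**Figure D4:**
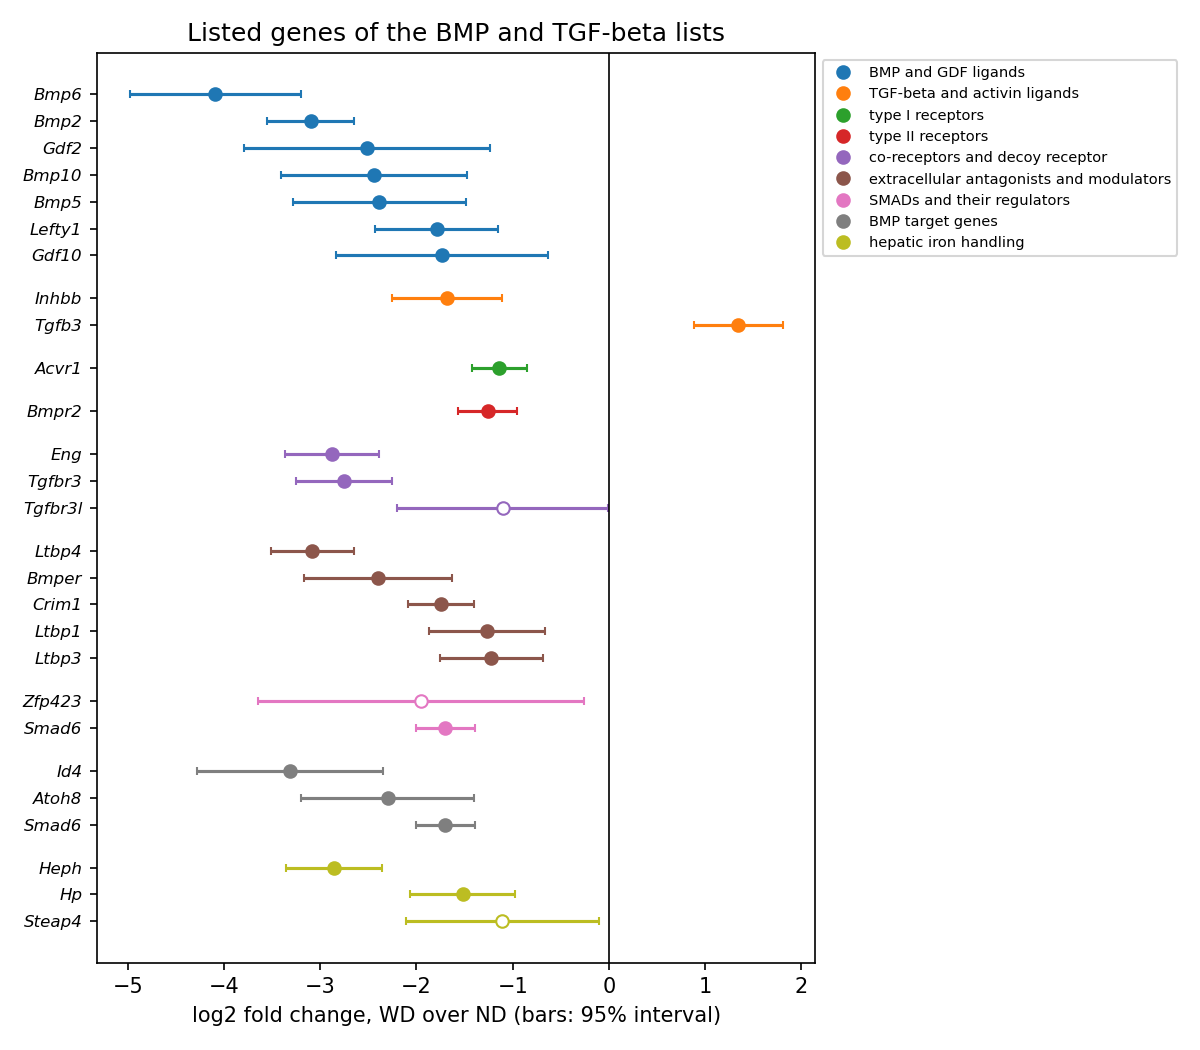
Log2 fold change of WD over ND (horizontal axis) with 95% intervals for the listed genes of the 9 BMP and TGF-beta lists, coloured by list; filled circles mark an adjusted p below 0.05 and open circles the 3 genes without it, and Smad6 stands in both of its lists. Tgfb3 at 1.34 is the only gene to the right of 0.

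The start sites of the lowered genes were searched for motifs of BMP and endothelial regulators. RefSeq promoters (GRCm38.p6, 250 bases before to 50 after the start, 32851 in all) were held for 6 of the 7 genes, all but Bmp2. The GC-rich SMAD element GGCGCC, the same on both strands, was found in 1 of the 6, Bmpr2, and in 11.9% of all promoters. TGACNNNGC, the core of the antioxidant response element bound by NRF2, which is known to regulate Bmp6 in endothelium, was found on either strand in 1 of the 6, Bmp6, and in 12.4% of all promoters. CAGAC, the short SMAD-binding motif, was in Bmp5 and Bmp6 and in 49.6% of all promoters, and CCGGAA, an ETS-type motif, in Acvr1 and 14.9% of all promoters, both strands searched. GC content ran from 43.3% in Bmp5 to 83.7% in Acvr1, with a mean of 53.8% over all promoters. The promoters of Bmp6 (chr13:38345466-38345765), Bmpr2 (chr1:59764029-59764328) and the target gene Id4 (chr13:48260866-48261165), all on the plus strand, are shown as examples of a ligand, a receptor and a target gene that hold a match. Capitals mark TGACNNNGC in Bmp6, starting 108 bases before the start site, and GGCGCC in Bmpr2 and Id4, starting 105 and 148 bases before it. These are the start sites of the RefSeq promoters, which differ from the GENCODE M21 gene starts. The Bmp6 and Bmpr2 windows lie inside the GENCODE genes, which start at 38345107 and 59763400. The Id4 window ends before its GENCODE start at 48261228. A match is a run of letters and not a bound site.
Bmp6: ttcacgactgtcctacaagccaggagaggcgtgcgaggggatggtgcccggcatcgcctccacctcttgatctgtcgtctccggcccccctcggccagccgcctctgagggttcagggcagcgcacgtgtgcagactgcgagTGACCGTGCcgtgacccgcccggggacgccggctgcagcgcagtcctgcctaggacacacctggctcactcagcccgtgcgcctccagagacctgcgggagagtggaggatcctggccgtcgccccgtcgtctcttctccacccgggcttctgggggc
Bmpr2: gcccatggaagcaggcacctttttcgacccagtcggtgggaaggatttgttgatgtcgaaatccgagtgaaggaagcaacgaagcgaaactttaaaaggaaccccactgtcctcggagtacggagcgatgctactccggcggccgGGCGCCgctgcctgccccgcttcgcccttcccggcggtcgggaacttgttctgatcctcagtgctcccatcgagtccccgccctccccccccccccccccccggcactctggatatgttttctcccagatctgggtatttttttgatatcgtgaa
Id4: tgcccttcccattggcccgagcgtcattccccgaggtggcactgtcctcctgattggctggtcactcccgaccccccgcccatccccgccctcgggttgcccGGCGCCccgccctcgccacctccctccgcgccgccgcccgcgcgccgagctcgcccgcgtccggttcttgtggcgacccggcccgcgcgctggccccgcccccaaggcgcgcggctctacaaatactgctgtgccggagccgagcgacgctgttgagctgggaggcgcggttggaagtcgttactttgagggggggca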

How the data were processed

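RNA of 8 liver macrophage libraries was sequenced after oligo(dT) enrichment and random hexamer priming, per the labels' protocols. Build mm10 and the tools DESeq, edgeR, featureCounts, HISAT2, STAR, STAR-Fusion and StringTie are given, without roles or versions, per the submitters' processing notes. The authors deposited 1 table. Per gene it holds a deposited signal, the mean normalized read count. The deposited log2 fold change and its SE compare WDV with NDV. The deposited test score equals fold change over SE, and the authors' p-values match a two-sided normal test of it within 1% for all 2386 genes. Adjusted p-values were empty for 77 genes, which were not counted as passing. The authors' adjusted p below 0.05 was the limit for a call. The number of tested genes, 17531, is the whole number that makes most ranks (p times that number over adjusted p) whole within 0.02; it did so for 91.0% of genes. The step was tested on simulated data. Positions and exon lengths came from GENCODE M21 by gene ID, and promoters from RefSeq by symbol. The genes and lists were chosen with earlier results of these data known. Named were the 7 genes, every listed pathway gene, up to 3 markers a list by p, and the 3 genes nearest to Bmp2 and Bmp6. Marker names beyond this rule, and the promoters shown, were chosen after values were seen. Limits on p, interval and mean count were varied. Python 3.11.15, pandas 2.3.3 and scipy 1.17.1 were used.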

Additional observations from a re-analysis of the deposited data

How the results depend on the processing

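All 7 Bmp and Acvr genes stayed lower at an adjusted p below 0.01, without a limit on adjusted p and at a mean normalized count of at least 10. None of these settings could remove a gene, since the largest adjusted p of the 7 in the authors' deposited table was 7.96e-06 and the lowest mean count 20.7. They were 4 (Bmp2, Bmp6, Bmpr2 and Acvr1) at a mean count of at least 100, and 5 had a 95% interval wholly beyond 2-fold, without Bmpr2 and Acvr1. At a mean count of at least 100, 14 of 22 pathway genes remained lower, as did 7 of 12 stellate markers, and 5 of 9 T and NK cell, 1 of 7 mast cell and 1 of 2 B cell markers remained higher. At a mean count of at least 10, 4 of 7 mast cell markers remained higher. With the interval wholly beyond 2-fold, 16 of 22 pathway genes remained lower, without Acvr1, Bmpr2, Gdf10, Hp, Ltbp1 and Ltbp3. So did 5 of 12 stellate markers. By the same limit, 0 of 1 pathway genes (Tgfb3), 2 of 9 T and NK cell, 1 of 3 hepatocyte and 0 of 2 B cell markers remained higher. At an adjusted p below 0.01, 7 of 12 stellate and 1 of 2 B cell markers remained. Without a limit on adjusted p, 1 cholangiocyte marker was higher in place of 0. On the strand of the gene alone, CAGAC was in 1 in place of 2 promoters and CCGGAA in 0 in place of 1. No paired analysis was possible because the table holds no value per library; for the same reason no library could be left out and no other normalization tried. Proteins were not compared, since no protein sequences were used here. The SEs of Bmp5, Bmp6 and Bmp10 were the largest of the 7 genes, at 0.46, 0.45 and 0.49, although Bmp6 had a mean count of 476.5.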

Other observations

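Gdf10 and Gdf2, which both fell, are neighbours on chromosome 14 (GRCm38, plus strand), with 3055 bases and no annotated gene between the end of Gdf10 and the start of Gdf2. Their log2 fold changes in the authors' deposited table were -1.74 ± 0.56 and -2.52 ± 0.65, and their mean normalized read counts 38.4 and 93.3.

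Tgfb3 was the only gene of the pathway lists in the authors' enrichment of genes with a positive fold change, which covered 373 Gene Ontology and 78 KEGG terms. It was named in 24 terms, 13 of them with a Benjamini p below 0.05 in the authors' deposited table. The smallest belonged to cytokine-cytokine receptor interaction, with 31 genes (5.54e-16), and inflammatory bowel disease, with 13 genes (3.42e-09), in the authors' deposited table. The Bmp and Acvr genes were in 0 of these terms, since the enrichment took only genes with a positive fold change.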
